A study of Homo sapiens with 44 samples.

Results

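The genes described here are MYCN with its chromosome 2p24 neighbours DDX1 and NBAS, and MYC with the dimerisation partner MAX and the MAX-binding antagonists MXD3, MXD4, MXI1, MNT and MGA. They were taken by symbol from the deposited count tables, which gave 10 of the 19923 genes counted. Kelly and NGP, neuroblastoma cell lines labelled as MYCN-amplified and of wild-type genotype, were treated with STM2457, an inhibitor of the m6A RNA methyltransferase METTL3, or with DMSO, the solvent. The groups were Kelly cells given DMSO or 8 µM STM2457 for 1 day or for 6 days, NGP cells given either for 6 days, and subcutaneous Kelly xenografts in nude mice given daily intraperitoneal injections of the solvent or of 50 mg/kg STM2457 for 14 days. Each group was measured as input, which is poly(A) RNA, and as RIP, the fragments of that RNA bound by an antibody against m6A. There were 3 input and 3 RIP libraries in each culture group and 2 of each in each xenograft group. Each line stands for a single tumour, and the mice, as nude animals, lack T cells while their stroma and vessels remain.

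MYCN and MYC are transcription factors that bind DNA as heterodimers with MAX, typically at the E-box CACGTG, and activate genes of ribosome production, nucleotide synthesis and cell growth. MXD3, MXD4 and MXI1 (members of the MXD family), MNT and MGA compete for MAX at the same sites and recruit repressor complexes. Amplification of 2p24 defines a high-risk class of neuroblastoma, and the amplified segment often carries DDX1, an RNA helicase, and sometimes NBAS, a subunit of a complex that tethers Golgi-derived vesicles to the endoplasmic reticulum. In such tumours high MYCN goes with little MYC. METTL3 places m6A on adenosines of mRNA in a short consensus of which GGACT is the commonest form, mostly in long internal exons and near stop codons.

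On GRCh38 the files place MYCN on the plus strand at chr2:15940550-15947007, DDX1 on the plus strand at chr2:15591178-15631111 and NBAS on the minus strand at chr2:15166914-15561334. DDX1 starts 29.8 kb beyond NBAS, and MYCN lies 309 kb beyond DDX1. The partners are spread over the genome, with MAX at chr14:65006174-65102695, MXD3 at chr5:177301461-177312757, MXD4 at chr4:2247432-2262109 and MNT at chr17:2384073-2401104 on the minus strand, and MXI1 at chr10:110207605-110287365 and MGA at chr15:41621224-41773081 on the plus strand. The GGACT sites of MYCN and MXD3, both higher in RIP than in input in Kelly cells, are shown with 10 bases on either side and the motif in capitals. MGA, and MNT at 1 day, were also higher in RIP there, and their sites are only counted below. The sites shown were read on the transcript strand from the GENCODE 44 transcripts and matched the GRCh38 sequence.
MYCN, coding part of exon 2, chr2:15942355-15942379: cggcctggggGGACTgggtggcctc
MYCN, coding part of exon 2, chr2:15942393-15942417: tcatcctccaGGACTgcatgtggag
MYCN, coding part of exon 3, chr2:15946077-15946101: gaacacgctcGGACTtgctagacgc
MXD3, coding part of exon 5, chr5:177307810-177307834: cggacagtctGGACTcctcaggcct
MXD3, 3′ UTR, chr5:177307466-177307490: ctgttggaatGGACTaaaaggaccc
MXD3, 3′ UTR, chr5:177307378-177307402: ggaaggggcaGGACTcatcaggacc
The MXD3 sites are on the minus strand of the genome. The MYCN transcript of 2613 bases held 3 sites, or 1.15 per kb, and the MXD3 transcript of 1067 bases held 3, or 2.81 per kb. No GGACT was found in the 2484 bases of DDX1, whereas NBAS held 8 (1.10 per kb), MAX 3 (1.49 per kb), MXD4 2 (0.52 per kb), MXI1 2 (0.58 per kb), MNT 7 (1.42 per kb) and MGA 7 in 12193 bases (0.57 per kb). Over all genes tested for RIP over input at 1 day in Kelly cells the median was 0.928 per kb, and 8.43% of their transcripts held none. A match says only that these letters are present.

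The E-box is shown for the 2 antagonists whose promoters carried it, MXD4 and MNT, in RefSeq promoter windows running from 250 bases before to 50 bases after the annotated start on GRCh38, with the motif in capitals.
MXD4, minus strand, 238 bases before the start, chr4:2262332-2262357: gccgggccacCACGTGctgttgctaa
MNT, minus strand, 193 bases before the start, chr17:2401238-2401263: ctgcccgggcCACGTGtgcgcgcgcc
CACGTG reads the same on both strands, so a single search covered both. It was present in 2 of 14 promoter windows of the 9 listed genes with an entry, and in 7.26% of all 35116 windows.

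Library totals ran from 2144870 to 31487824 assigned read pairs in input and from 4677568 to 36497858 in RIP, and the xenograft libraries were the shallowest, at 2144870 to 7271929 in input. Between 10 and 11 of 11 adrenergic neuroblastoma markers reached 1 CPM (a count scaled to a fixed library total) in every input group, with summed levels of 7339 to 31156 CPM. Fibroblast and vessel markers summed to 38.6 to 83.2 CPM in the xenograft groups, with COL1A2, DCN and LUM at 0 there, against 7.94 to 110 CPM over all input groups, and their part in the results was not tested. Only human genes were counted, so mouse stroma could add to a gene here only through reads that match the human sequence. Input replicate 3 of the STM2457 group in Kelly cells at 6 days stood apart, with 5765458 pairs and 1.79% of counts on mitochondrially encoded mRNAs against 4.06% to 5.09% in the other input libraries of that experiment. Depth differed by treatment there as well. STM2457 input replicates 1 and 2 held 28674672 and 31487824 pairs, against 12086438 to 12780130 with DMSO. The RIP libraries held 16319524 to 25547042 pairs with STM2457 and 10527000 to 11173326 with DMSO. Libraries of a group correlated least in the xenografts, at a mean r across genes of 0.659 to 0.770 in RIP and 0.868 to 0.949 in input, against 0.869 to 0.996 in the culture groups. Replicates are not described as separate cultures, so the p-values measure the spread between these samples, which may be technical. The labels and headers do not separate a batch from an experiment. Per the file headers, input and RIP of the 1-day experiment were counted in separate folders and those of each other experiment in a single folder, and whether this marks a batch, which would bear on every RIP over input value at 1 day, was not tested.

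MYCN was among the most abundant mRNAs in every input group. Per length, its level in DMSO was 1362 ± 69.3 RPKM (assigned read pairs scaled by exon length and library total, mean ± SD) in Kelly cells at 1 day and 2017 ± 29.7 RPKM at 6 days (n = 3 each). It was 2293 ± 193 RPKM in NGP cells (n = 3) and 2390 ± 133 RPKM in xenografts (n = 2). Among all 19923 genes these levels held places 15, 22, 9 and 17, and the STM2457 groups held places 16, 10, 12 and 24. DDX1 had the second highest mean of the 10 genes in all experiments, though its libraries overlapped those of MXD3 in xenografts, with 87.2 ± 2.51 RPKM in Kelly cells at 1 day, 33.3 ± 1.76 RPKM at 6 days, 45.2 ± 2.42 RPKM in NGP cells and 26.0 ± 5.26 RPKM in xenografts. MYCN thus exceeded DDX1 per length by 15.6 ± 1.23 times in Kelly cells at 1 day, 60.7 ± 4.10 times at 6 days, 51.0 ± 6.76 times in NGP cells and 94.4 ± 24.2 times in xenografts. NBAS, the farther neighbour, lay lower still, at 11.2 ± 0.207, 2.96 ± 0.0937, 3.86 ± 0.560 and 2.94 ± 0.588 RPKM in the same order.

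MYC was close to the counting floor. Its input counts in DMSO were 17, 17 and 13 in Kelly cells at 1 day, 0, 1 and 0 at 6 days, 4, 0 and 0 in NGP cells, and 0 in both xenograft libraries. With STM2457 the counts were 11, 10 and 9 in Kelly cells at 1 day, 16, 5 and 0 at 6 days, 0, 13 and 15 in NGP cells, and 0 in both xenograft libraries. A count of 0 over the xenograft group allows up to 0.259 CPM in DMSO and 0.562 CPM with STM2457, for counting error only. In NGP cells the pair of treated libraries with MYC counts reached 2.37 and 1.43 CPM while the other treated library held none, so the groups overlapped. MYC passed the filter on low counts only in Kelly cells at 1 day, and the other experiments were tested on the remaining 9 genes.

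MAX and its other partners lay between 1 and 20 RPKM in DMSO. MAX, the obligate partner, was at 7.01 ± 0.498 RPKM in Kelly cells at 1 day, 5.97 ± 0.431 RPKM at 6 days, 12.3 ± 1.00 RPKM in NGP cells and 4.06 ± 2.12 RPKM in xenografts. The ratio of MYCN to MAX per length was 196 ± 23.7, 340 ± 30.1, 188 ± 29.9 and 691 ± 393 in the same order. MAX shares 1445 exon bases with FNTB and CHURC1-FNTB, and MXD3 shares 2074 with PRELID1 and RAB24, so their levels depend on how reads in those stretches were assigned. RPKM also divides by all exon bases counted for a gene, not by the length of 1 transcript. These were 5154 against 1067 bases for MXD3, 6257 against 2010 for MAX and 8701 against 4925 for MNT. For MGA they were 17651 against 12193, and for MYCN 2616 against 2613. The orders and ratios per length therefore depend on that choice. In Kelly cells at 1 day MNT (8.55 ± 0.463 RPKM) and MGA (8.16 ± 0.363 RPKM) led the antagonists with overlapping libraries, followed by MXI1, MXD4 and MXD3 at 5.09 to 6.69 RPKM, of which MXD4 and MXD3 overlapped. At 6 days MXD4 (14.9 ± 0.399 RPKM) and MXD3 (13.9 ± 0.966 RPKM) came first with overlapping libraries, and MGA came last at 1.41 ± 0.120 RPKM. MXD3 led in NGP cells at 16.8 ± 3.62 RPKM and in xenografts at 19.3 ± 6.40 RPKM, where it overlapped MXD4 at 14.8 ± 1.5 RPKM. MGA was again the lowest of the 5 antagonists in both. The levels of Kelly cells at 1 and at 6 days come from separate experiments and were not tested against each other. MYCN over the summed levels of the 5 antagonists was 40.1 ± 1.17, 47.1 ± 1.20, 53.4 ± 2.40 and 45.1 ± 3.65 in DMSO, and 37.6 ± 0.978, 54.8 ± 3.16, 38.2 ± 1.20 and 43.4 ± 2.38 with STM2457, in the same order of experiments as for MAX.

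**Figure D1:**
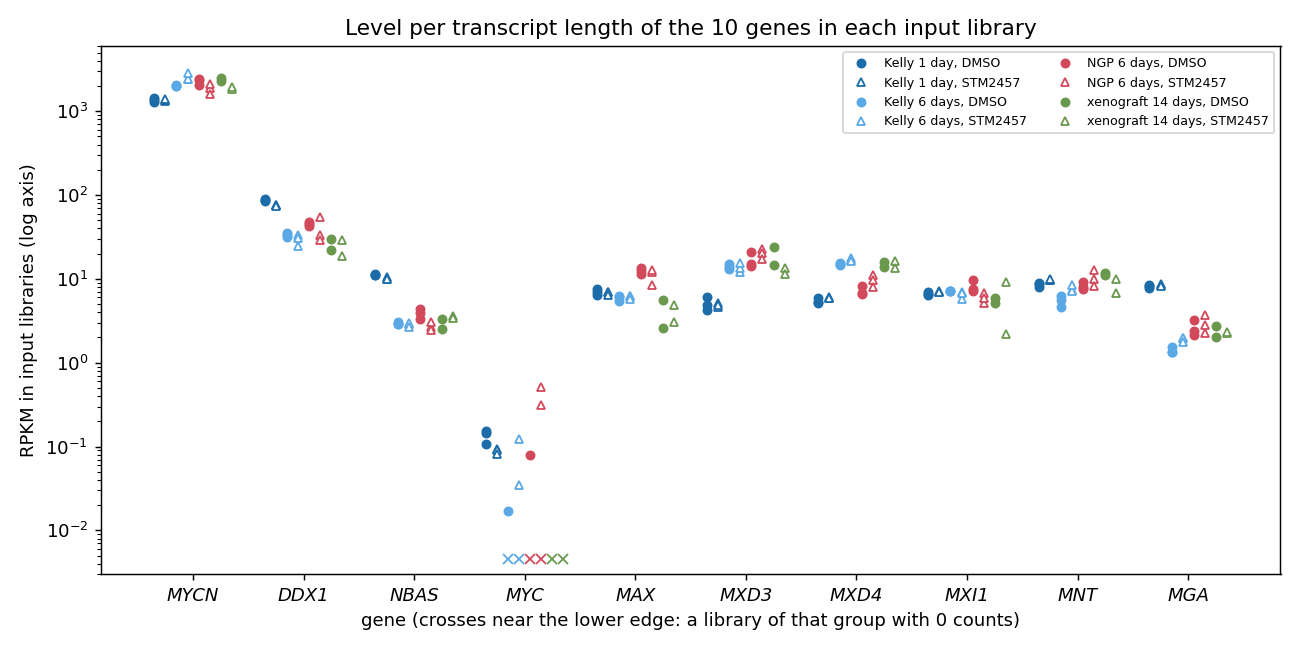
Level of each of the 10 genes in every input library, in RPKM on a log axis, by experiment and treatment, with crosses for libraries with 0 counts. MYCN lies far above the rest in every library, at group means of 1362 to 2390 RPKM in DMSO, and MYC lies lowest.

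NGP and Kelly cells were compared at 6 days, and xenografts with Kelly cells at 6 days, over the DMSO inputs alone. Values for single libraries here and below are normalised CPM, which is CPM taken over the library size after edgeR's TMM scaling within the fit. MYCN overlapped between the lines, at 5643, 5528 and 5785 normalised CPM in Kelly and 4902, 6124 and 5843 in NGP cells (log2 difference -0.01 ± 0.09 SE, edgeR quasi-likelihood adjusted p = 0.95). Of the 9 genes tested, 5 differed between the lines (4 higher and 1 lower in NGP cells), where 60.8% of all genes did (29.1% higher, 31.7% lower). MAX was higher in NGP cells, at 75.2, 68.1 and 72.7 against 42.1, 40.8 and 37.0 (log2 difference 0.85 ± 0.10, adjusted p = 5.4e-05). MXD4 was lower in NGP cells, at 41.7, 54.1 and 42.3 against 110, 112 and 108 (-1.26 ± 0.11, adjusted p = 6.2e-06). No library of one line overlapped the other for either gene. MGA (0.69 ± 0.15, adjusted p = 0.0029), MNT (0.40 ± 0.14, adjusted p = 0.027) and DDX1 (0.24 ± 0.08, adjusted p = 0.022) were higher in NGP cells. The call for DDX1 was lost without Kelly replicate 1 or 3 (adjusted p = 0.084 and 0.11), and that for MNT without Kelly replicate 1 or 2 (0.13 and 0.078).

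Xenografts held more MYCN than cultured Kelly cells, at 6719 and 6112 normalised CPM against 5175, 5106 and 5303 (log2 difference 0.30 ± 0.05, adjusted p = 0.0012). MNT (1.11 ± 0.13, adjusted p = 0.00038) and MGA (0.83 ± 0.17, adjusted p = 0.0050) were also higher in the xenografts, so 3 of 9 differed, where 40.8% of all genes did. MNT stood at 105 and 97.2 normalised CPM in the xenografts against 39.5, 47.3 and 53.4 in culture. MGA, the largest of these proteins and a subunit of a Polycomb-type repressor complex, stood at 37.0 and 49.5 against 23.2, 26.8 and 23.6. In neither gene did the groups overlap. Line or growth in the mouse and the experiment cannot be told apart in these comparisons. In bulk RNA, fewer cells of a type and less RNA per cell cannot be told apart either.

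A change of MYCN in input with STM2457 was called at 6 days in Kelly cells and in none of the other experiments. MYCN in Kelly cells at 1 day was 3634, 3786 and 3372 normalised CPM with DMSO and 3472, 3481 and 3621 with STM2457, and the groups overlapped (log2 change -0.03 ± 0.04 SE, adjusted p = 0.68; -0.081 to 0.0087 with 1 library left out). At 6 days it was 5473, 5370 and 5614 with DMSO and 6216, 6069 and 7103 with STM2457 (0.24 ± 0.07, adjusted p = 0.019). All 3 treated libraries lay above all 3 controls, with replicate 3, the library that stands apart, the highest. Without that library the change was 0.17 and was still called, whereas without DMSO replicate 1, 2 or 3 it was not (adjusted p = 0.095, 0.088 and 0.063). In NGP cells MYCN was 5379, 6727 and 6400 with DMSO and 4861, 5444 and 4069 with STM2457, and the groups overlapped by 1 library (-0.36 ± 0.16, adjusted p = 0.22). A fit over all input libraries of the study called that difference (-0.37, adjusted p = 0.016) and lost the call at 6 days in Kelly cells (0.26, adjusted p = 0.14). In xenografts MYCN was 6314 and 5696 with the solvent and 5025 and 5402 with STM2457, without overlap and without a call (-0.20 ± 0.08, adjusted p = 0.54).

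DDX1 fell in Kelly cells at both times. It was 341, 328 and 342 normalised CPM with DMSO and 286, 287 and 286 with STM2457 at 1 day (log2 change -0.24 ± 0.04, adjusted p = 0.0010), and every treated library lay below every control. This call held with any single library left out and was lost in the fit over all inputs (-0.25). At 6 days DDX1 was 133, 139 and 127 against 123, 113 and 89.9 (-0.27 ± 0.09, adjusted p = 0.034). Without STM2457 replicate 3, the lowest library, the change was -0.16 (adjusted p = 0.084). The call at 6 days was also lost without any of the DMSO replicates or STM2457 replicate 2 (adjusted p = 0.063 to 0.14). In NGP cells DDX1 was 180, 173 and 180 with DMSO and 126, 110 and 204 with STM2457, so that treated replicate 3 alone was above the controls (-0.27 ± 0.18, adjusted p = 0.48). Without it the change was -0.59 and was called (adjusted p = 0.042). Xenograft DDX1 overlapped between groups, at 82.9 and 108 against 73.6 and 117. NBAS fell in Kelly cells at 1 day from 101, 99.9 and 102 to 89.3, 92.3 and 90.0 normalised CPM (-0.16 ± 0.05, adjusted p = 0.046), a call that was lost with any single library left out (adjusted p = 0.052 to 0.17) or with no filter on low counts (0.064). NBAS in NGP cells was 39.1, 36.7 and 30.4 with DMSO and 23.3, 21.9 and 26.7 with STM2457. The groups did not overlap, and the change was not called (-0.56 ± 0.22, adjusted p = 0.17).

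Among the MAX partners, MNT rose at both times in Kelly cells and MGA rose at 6 days. MNT, a broadly expressed antagonist of MYC, went from 76.5, 78.8 and 69.9 normalised CPM to 84.8, 84.1 and 87.4 at 1 day (0.19 ± 0.06, adjusted p = 0.043). At 6 days it went from 41.8, 49.8 and 56.6 to 62.8, 60.3 and 70.1 (0.37 ± 0.10, adjusted p = 0.012). MGA overlapped at 1 day, at 146, 140 and 150 against 149, 152 and 144, and went from 24.5, 28.2 and 25.0 to 34.3, 33.3 and 30.1 at 6 days (0.34 ± 0.10, adjusted p = 0.020), with no overlap. The call for MNT at 1 day was lost without DMSO replicate 3 or any STM2457 replicate (adjusted p = 0.096 to 0.16) and under RLE size factors (0.058), and that at 6 days without DMSO replicate 1 (0.27, adjusted p = 0.079). The call for MGA was lost without DMSO replicate 1, DMSO replicate 3 or STM2457 replicate 2 (adjusted p = 0.073 to 0.089). None of these calls in Kelly cells, nor those for NBAS and DDX1, held in the fit over all inputs. MXI1 at 6 days lay lower in all treated libraries, at 40.4, 33 and 38.7 against 43.9, 43.5 and 44.3, without a call (-0.24 ± 0.09, adjusted p = 0.072), and was called without STM2457 replicate 1 (-0.30, adjusted p = 0.026). MAX was not called in any experiment, with 40.9, 39.6 and 35.9 against 38.5, 37.1 and 33.9 at 6 days in Kelly cells.

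In all, 3 of 10 genes were called in Kelly cells at 1 day (1 higher, 2 lower), where 17.5% of all genes were (9.41% higher, 8.06% lower). At 6 days 4 of 9 were called (3 higher, 1 lower), where 26.6% of all genes were (11.9% higher, 14.7% lower). The median log2 change of the listed genes was -0.047 at 1 day and -0.075 at 6 days, against 0.0074 and -0.0045 over all genes. The groups did not overlap for 4 of 10 genes at 1 day and 6 of 9 at 6 days, where 33.9% and 41.4% of all genes did not, nor for 2 of 9 in NGP cells and 3 of 9 in xenografts, where 23.3% and 41.0% did not. In NGP cells edgeR called 0 of 9, against 4.23% of all genes (2.07% higher, 2.16% lower), with 3 below 0.05 before adjustment, and DESeq2 called 0. In xenografts edgeR called 0 of 9, against 0.00% of all genes, with 1 below 0.05 before adjustment, and DESeq2 called 0. The difference between the changes was tested too. MYCN changed more at 6 days than at 1 day in Kelly cells (difference 0.28 ± 0.09, adjusted p = 0.041), as did MGA (0.33 ± 0.10, adjusted p = 0.040), so 2 of 10 were called, where 8.41% of all genes were. The call for MYCN was lost without any 1 of 5 libraries of the 1-day experiment, namely DMSO replicate 1 or 2 or any STM2457 replicate (adjusted p = 0.066 to 0.10). The call for MGA was lost without DMSO replicate 1 or 3 of either experiment or any STM2457 replicate of the 1-day experiment (adjusted p = 0.054 to 0.10). Between Kelly and NGP cells at 6 days edgeR called 0 of 9, against 1.36% of all genes, with 1 below 0.05 before adjustment, and DESeq2 called 1. MYCN was the closest (0.62 ± 0.17, adjusted p = 0.088; DESeq2 0.60, adjusted p = 0.023), and was called without NGP DMSO replicate 1 (0.71, adjusted p = 0.048) or NGP STM2457 replicate 2 (0.74, adjusted p = 0.025) or with no filter (0.64, adjusted p = 0.046).

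**Figure D2:**
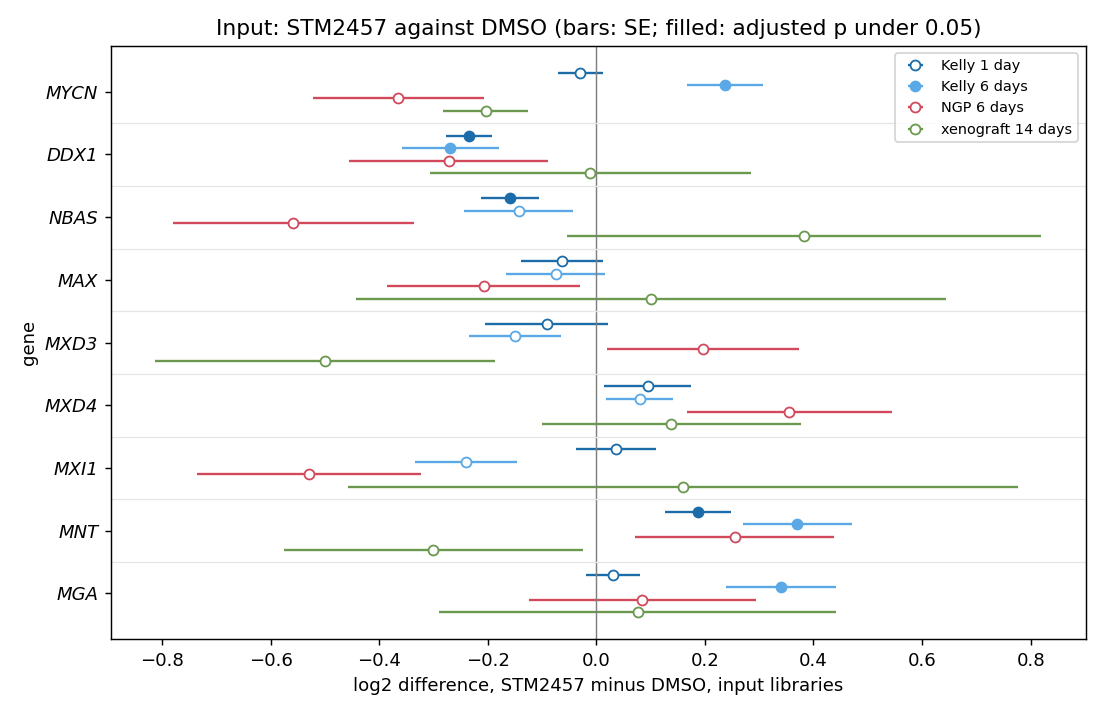
Log2 change of input level with STM2457 against DMSO for 9 genes in each experiment, with bars of 1 SE and filled points where the adjusted p is under 0.05. Filled points are DDX1, NBAS and MNT in Kelly cells at 1 day and MYCN, DDX1, MNT and MGA at 6 days, and none in NGP cells or xenografts.

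Of 34 genes of the wider MYC network and its cofactors, 33 were tested at 1 day in Kelly cells, of which 7 fell and 0 rose, where 8.06% of all genes fell and 9.41% rose (median log2 change -0.052 against 0.0074 over all genes). RUVBL2, an ATPase of chromatin remodelling complexes, went from 335 ± 21.5 to 262 ± 12.1 normalised CPM (log2 change -0.35), and ACTL6A, an actin-related subunit of such complexes, fell by 0.28 on the log2 scale. At 6 days 4 rose and 5 fell of 33, where 11.9% of all genes rose and 14.7% fell (median 0.023), among them HCFC1 (0.52), a MYC cofactor, TFAP4 (0.43), RUVBL1 (-0.46) and ACTL6A (-0.48). Of 45 genes commonly induced by MYC, 44 were tested at 1 day, of which 4 rose and 13 fell (median -0.09), and 43 at 6 days, of which 1 rose and 12 fell (median -0.09), beside the same shares of all genes at each time. SLC7A5, an amino acid transporter, went from 309 ± 7.99 to 142 ± 10.00 normalised CPM at 6 days (-1.13), and MTHFD2, a mitochondrial folate enzyme, fell by 0.90 on the log2 scale, while PPAN, a ribosome assembly factor, rose (0.48). In NGP cells 0 rose and 2 fell of 43, where 2.07% of all genes rose and 2.16% fell, and the 2 were NPM1 (-0.83) and LDHA (-0.58). Of 10 genes repressed by MYCN, 8 were tested at 1 day in Kelly cells, of which 1 rose and 1 fell, where 9.41% of all genes rose and 8.06% fell. At 6 days 1 rose and 4 fell of 9, where 11.9% of all genes rose and 14.7% fell. CDKN1C (-2.94) and CDKN1A (-1.38), inhibitors of cyclin-dependent kinases, were among the 4 that fell. Of 7 tested in NGP cells 0 rose and 2 fell, namely CDKN1A (-1.73) and NGFR (-0.77), where 2.07% of all genes rose and 2.16% fell. In xenografts edgeR called no gene of these lists, where 0.00% of all genes were called.

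Within 5 Mb of MYCN, 30 further genes of chromosome 2 were counted, and 24 reached 1 CPM in input. With STM2457, 2 of 23 tested rose and 0 fell at 1 day, where 9.41% of all genes rose and 8.06% fell, and 4 of 21 rose and 2 fell at 6 days, where 11.9% rose and 14.7% fell. In NGP cells 1 rose and 2 fell of 21, where 2.07% of all genes rose and 2.16% fell. In xenografts 0 of 22 were called, where 0.00% of all genes were. TRIB2, a pseudokinase, rose at 1 day (0.40) and 6 days (0.84) in Kelly cells and also in the NGP line (0.89), and FAM49A, which lies within 2 Mb, fell in NGP cells and, at 6 days, in Kelly cells (-1.02 in each). In DMSO, 9 of 21 neighbours were higher and 2 lower in NGP than in Kelly cells at 6 days, where 29.1% of all genes were higher and 31.7% lower. Within 2 Mb, 3 of 6 were higher and 0 lower, with FAM49A (2.01), GEN1 (1.73) and SMC6 (0.52) higher. Copy number was not measured in these libraries.

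RIP over input separated the genes widely in DMSO. MYCN was the second most abundant mRNA of the RIP libraries by CPM in Kelly cells at 1 day, with 17713, 15703 and 15878 normalised CPM in RIP against 3608, 3651 and 3272 in input (log2 ratio 2.23 ± 0.06 SE, or 4.68-fold, adjusted p = 7.6e-12). MGA followed at 520, 534 and 541 against 145, 135 and 146 (1.90 ± 0.06, adjusted p = 1.1e-11). MXD3 stood at 79.4, 69.3 and 69.6 against 22, 30.8 and 24.6 (1.5 ± 0.15, adjusted p = 1.1e-06). For these 3 genes every RIP library exceeded every input library, and 82.0% of all genes had RIP and input libraries that did not overlap. DDX1, the transcript without a GGACT site, went the other way, at 114, 103 and 110 in RIP against 339, 317 and 332 in input (-1.59 ± 0.06, adjusted p = 9.7e-11). NBAS (-3.01 ± 0.18, adjusted p = 6.5e-09), which held 8 sites, and MXI1 (-2.56 ± 0.25, adjusted p = 9.9e-07), which held 2, were lower in RIP as well, and MNT was higher (0.50 ± 0.12, adjusted p = 0.0020). With libraries scaled to the 13 mitochondrially encoded mRNAs, the median over all genes moved to 1.57 and DDX1 turned positive (0.047) while lying below that median. In all, 4 of 10 were higher and 3 lower, where 33.3% of all genes were higher and 34.3% lower (67.6% called). MAX, MXD4 and MYC had RIP and input libraries that overlapped.

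At 6 days in Kelly cells 5 genes were called, each on the same side of 0 as at 1 day. MYCN had 12157, 13004 and 17370 normalised CPM in RIP against 5187, 5124 and 5318 in input (1.44 ± 0.19, adjusted p = 3.5e-05). MGA had 118, 142 and 111 against 23.2, 26.9 and 23.7 (2.33 ± 0.32, adjusted p = 5.7e-05), and MXD3 had 173, 132 and 168 against 76.0, 69.3 and 66.8 (1.16 ± 0.20, adjusted p = 0.00040). DDX1 was lower in RIP (-1.65 ± 0.22, adjusted p = 4.5e-05), as was NBAS (-4.13 ± 1.13, adjusted p = 0.0077), whose call was lost without DMSO replicate 2 (-3.83, adjusted p = 0.063) or 3 (-3.93, adjusted p = 0.061). Scaled to the mitochondrially encoded mRNAs the median was 4.77, and DDX1 (3.21), NBAS (0.70) and MXI1 (2.77) turned positive while lying below it. Of the 9 genes 3 were higher and 2 lower, where 28.8% of all genes were higher and 29.2% lower (58.0% called). MXI1 had 11.2, 15.1 and 7.02 in RIP against 41.6, 41.5 and 42.0 in input and was not called (-1.91 ± 0.79, adjusted p = 0.056); it was called without STM2457 replicate 2 (adjusted p = 0.0025) or 3 (adjusted p = 0.017). In xenografts edgeR called 0 of 9, against 3.75% of all genes, with 3 below 0.05 before adjustment, and DESeq2 called 1 (NBAS). MYCN had 12266 and 10784 in RIP against 6263 and 5685 in input there (0.95 ± 0.41, adjusted p = 0.20). NBAS had 0 counts in both DMSO RIP libraries of the xenografts, and edgeR did not call it (-10.5 ± 2.63, adjusted p = 0.067). For counting error only, this was at least 192-fold lower than its mean of 25.1 in input, taking 3 counts over the group as the floor. That floor does not cover loss of a gene from a library. With STM2457 the xenograft RIP duplicates held 0 and 350 counts of MAX and 1 and 371 of MXI1, though 709 and 473 of MNT. For NBAS edgeR reached a call when either STM2457 replicate was left out.

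NGP cells gave another order. MYCN in RIP was 8522, 6622 and 6024 normalised CPM against 5492, 6830 and 6611 in input, and the libraries overlapped (0.16 ± 0.20, adjusted p = 0.51; -0.073 without DMSO replicate 1). DDX1, which held no GGACT site, was higher in RIP here, at 303, 393 and 464 against 184, 175 and 186 (1.09 ± 0.22, adjusted p = 0.00017). MGA was higher as in Kelly cells, at 270, 265 and 214 against 58.3, 40.9 and 45.0 (2.37 ± 0.21, adjusted p = 5.3e-09), and MAX was higher (0.73 ± 0.19, adjusted p = 0.0020). A further 5 genes were lower in RIP, with MXD4 (-1.86 ± 0.23, adjusted p = 4.8e-07) and MXD3 (-1.23 ± 0.22, adjusted p = 6.6e-05) the lowest, MXD3 at 52.9, 31.4 and 31.9 against 79.4, 78.4 and 115. Thus 3 of 9 were higher and 5 lower, where 29.0% of all genes were higher and 26.5% lower (55.5% called). Among all genes in NGP cells, those called higher in RIP held a median of 0.826 GGACT per kb and those called lower 1.03. In Kelly cells this order was reversed, at 0.982 and 0.862 at 1 day and 1.02 and 0.905 at 6 days. Why the order of the medians differed was not tested. Scaled to the mitochondrially encoded mRNAs the median over all genes was 0.80, MYCN was called higher (0.95, adjusted p = 0.012), and the calls for NBAS (-0.44), MXD3 (-0.42), MXI1 (-0.14) and MNT (-0.13) were lost. Of the genes commonly induced by MYC, 10 of 44 were higher in RIP and 29 lower in Kelly cells on day 1, where 33.3% of all genes were higher and 34.3% lower (median -1.44 against -0.066 over all genes). In NGP cells 10 of 43 were higher and 21 lower, beside 29.0% and 26.5% of all genes (median -0.44 against 0.082).

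**Figure D3:**
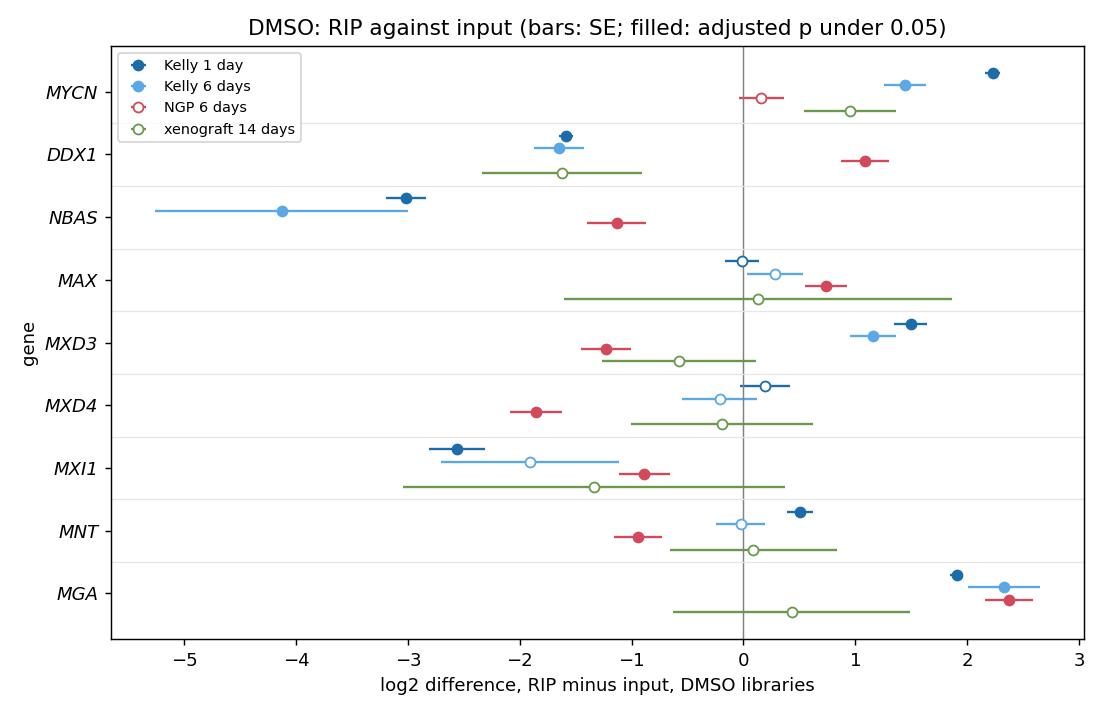
Log2 ratio of RIP to input in DMSO for 9 genes by experiment, with bars of 1 SE and filled points where the adjusted p is under 0.05; NBAS in xenografts, at 0 counts in RIP, is left out. MGA is above 0 and filled in Kelly cells at both times and in NGP cells, whereas DDX1 and MXD3 lie on opposite sides of 0 in the Kelly cultures and NGP cells; scaled to mitochondrially encoded mRNAs, DDX1 in the Kelly cultures turns positive.

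The difference in RIP over input between NGP and Kelly cells at 6 days was called for 6 of 9 genes, where 46.1% of all genes were. It was negative for MYCN (-1.46 ± 0.28, adjusted p = 0.00058), MXD3 (-2.56 ± 0.31, adjusted p = 2.2e-05), MXD4 (-1.82 ± 0.29, adjusted p = 0.00014) and MNT (-1.09 ± 0.30, adjusted p = 0.0086). It was positive for DDX1 (2.57 ± 0.28, adjusted p = 9.5e-06) and NBAS (2.83 ± 0.47, adjusted p = 0.00019). The call for MNT was lost without NGP DMSO replicate 2 (-0.78, adjusted p = 0.084). MGA was not called (-0.13 ± 0.25, adjusted p = 0.72). These ratios are relative to the other mRNAs of each library. With libraries scaled to the 13 mitochondrially encoded mRNAs, the median over all genes moved to -3.91, and DDX1 (-1.46) and NBAS (-1.08) turned negative while remaining above that median by 2.46 and 2.83. The line and the experiment cannot be told apart.

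**Figure D4:**
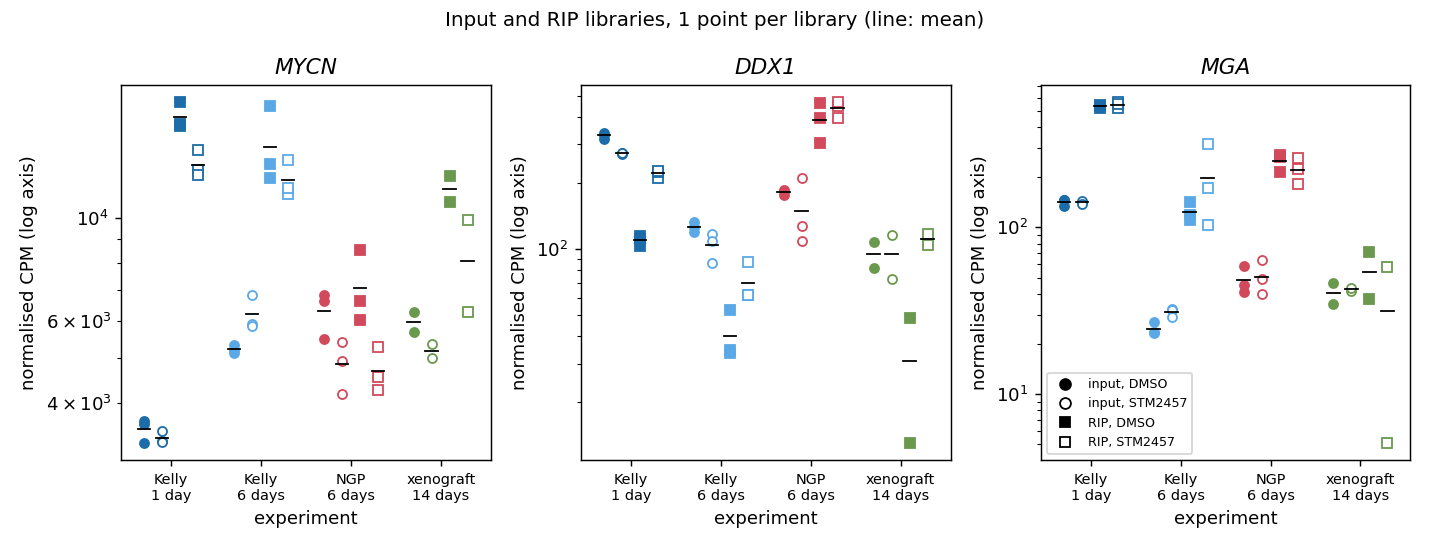
Normalised CPM of MYCN, DDX1 and MGA in every input library (circles) and RIP library (squares), DMSO filled and STM2457 open, with lines at group means. RIP lies above input for MGA in the DMSO cultures, and for DDX1 RIP lies below input in the Kelly DMSO cultures and above it in NGP cells.

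With STM2457, RIP lay closer to input for DDX1 at 1 day in Kelly cells. DDX1 in RIP went from 114, 103 and 110 to 211, 225 and 227 normalised CPM while input went from 339, 317 and 332 to 273, 272 and 274 (change in log2 ratio 1.29 ± 0.09 SE, adjusted p = 1.8e-06). MAX in RIP went from 49.9, 33 and 45.6 to 76.7, 87.9 and 73.7, with input at 44.1, 39.9 and 45.6 and then 41.0, 41.1 and 38.7 (0.99 ± 0.21, adjusted p = 0.0069). Both calls held with any single replicate, its input and RIP library together, left out. MXI1 also rose in RIP over input (1.13 ± 0.34, adjusted p = 0.037) and MXD4 fell (-1.08 ± 0.31, adjusted p = 0.033). The call for MXI1 was lost without any DMSO replicate or STM2457 replicate 1 or 2 (0.84 to 1.23, adjusted p = 0.059 to 0.11), and that for MXD4 without any DMSO replicate or STM2457 replicate 3 (-1.20 to -0.92, adjusted p = 0.077 to 0.16) or with no filter (-0.94, adjusted p = 0.079). MYCN in RIP went from 17713, 15703 and 15878 to 12628, 12352 and 13997, without overlap, and its ratio to input fell (-0.27 ± 0.09, adjusted p = 0.047). This call was lost without any 1 of 5 replicates, STM2457 replicate 3 being the exception (-0.33 to -0.15, adjusted p = 0.063 to 0.44). It was also lost under DESeq2 (-0.18, adjusted p = 0.16), under RLE size factors (-0.18, adjusted p = 0.20), with no filter (-0.14, adjusted p = 0.39) and with a replicate block (-0.27, adjusted p = 0.077). In all, 5 of 10 were called, where 17.2% of all genes were, with 3 upward, against 9.53% of all genes, and 2 downward, against 7.62%. MGA in RIP overlapped between the groups, at 520, 534 and 541 with DMSO and 520, 564 and 548 with STM2457, and was not called.

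At 6 days in Kelly cells edgeR called 0 of 9, against 2.06% of all genes, with 4 below 0.05 before adjustment, and DESeq2 called 2, namely DDX1 (1.01, adjusted p = 0.029) and MAX (1.37, adjusted p = 0.0076). DDX1 in RIP was 52.5, 33.4 and 34.7 with DMSO and 61.6, 87.2 and 61.9 with STM2457, without overlap (edgeR 1.08 ± 0.31, adjusted p = 0.094). MAX in RIP was 47.4, 46.0 and 40.9 against 67.8, 140 and 138 (edgeR 1.44 ± 0.35, adjusted p = 0.058), and was called without STM2457 replicate 1 (1.75, adjusted p = 0.0041). MYCN in RIP was 12157, 13004 and 17370 against 13263, 11261 and 11578, and the groups overlapped (-0.49 ± 0.26, adjusted p = 0.39). For the change in NGP cells edgeR called 0 of 9, against 0.00% of all genes, with 1 below 0.05 before adjustment, and DESeq2 called 0. MYCN in RIP was lower there in all treated libraries, at 4265, 4534 and 5268 against 8522, 6622 and 6024, and its ratio was not called (-0.21 ± 0.28, adjusted p = 0.95; 0.027 without DMSO replicate 1). For the change in xenografts edgeR called 0 of 9, against 0.00% of all genes, with 0 below 0.05 before adjustment, and DESeq2 called 0. MYCN in RIP was 12266 and 10784 with the solvent and 9871 and 6269 with STM2457 (-0.31 ± 0.58, adjusted p = 1.0; 0.035 without STM2457 replicate 2).

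A change spread over all mRNAs is removed by scaling RIP libraries to each other. With libraries scaled to the mitochondrially encoded mRNAs, the median change over all genes was -1.46 in Kelly cells at 1 day and -2.20 at 6 days, and -0.31 in NGP cells and -0.35 in xenografts. On that scale DDX1 and MAX turned negative in Kelly cells at both times (DDX1 -0.16 and -1.21, MAX -0.46 and -0.88), above the median in each case. MYCN was -1.72 at 1 day and -3.16 at 6 days (adjusted p = 1.6e-07 and 0.047), below the median by 0.25 and 0.96. NBAS, MXD3, MXD4, MNT and MGA (-1.40, adjusted p = 4.9e-08) were also called lower at 1 day. At 6 days DMSO RIP replicate 3 held 0.077% of counts on mitochondrially encoded mRNAs, against 0.26% and 0.30% in DMSO RIP replicates 1 and 2. The share also differed between xenograft RIP duplicates, at 4.78% and 1.02% with the solvent and 1.63% and 5.86% with STM2457.

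**Figure D5:**
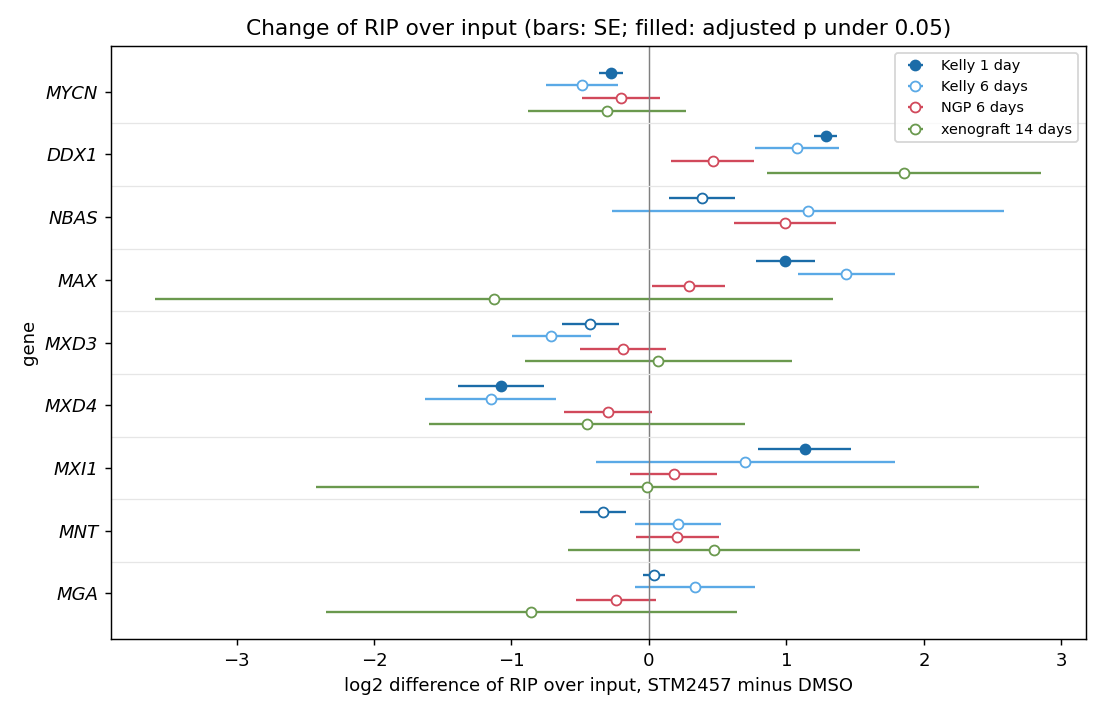
Change with STM2457 in the log2 ratio of RIP to input for 9 genes by experiment, with bars of 1 SE and filled points where the adjusted p is under 0.05; NBAS in xenografts is left out. Filled points occur only in Kelly cells at 1 day, with DDX1, MAX and MXI1 above 0 and MYCN and MXD4 below, and DDX1, MAX and MXI1 turn negative there when scaled to mitochondrially encoded mRNAs.

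The genes whose input level followed MYCN most closely over the 8 input group means were PNISR (Pearson r = 0.990), MYPOP (0.985), RBCK1 (0.976), PHLDB3 (0.965) and SYF2 (0.965), out of 9339 genes with a mean of 10 CPM or more over the inputs. At 1 day in Kelly cells, where MYCN was lowest, MYPOP lay below that minimum, at 6.84 CPM in the controls and 8.67 CPM in the treated cells, as did PHLDB3 in the controls, at 9.85 CPM. Among the listed genes MXD3 (0.892) and MXD4 (0.880) ran with MYCN, MXI1 (0.498) and MNT (0.297) were weaker, MAX was at -0.036, and NBAS (-0.828), MGA (-0.891) and DDX1 (-0.895) ran against it. Ranked by Spearman's rho the 5 closest genes shared 0 of 5 with that list. The 8 means span 4 experiments of unequal depth, and Kelly cells at 1 day were lowest in MYCN and highest in DDX1, NBAS and MGA.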

How the data were processed

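Input and m6A RIP libraries of poly(A) RNA, 22 of each, were deposited as counts: per the file headers, the authors counted read pairs over exons by gene name with featureCounts 1.5.3 on GENCODE 33 protein-coding genes of GRCh38, with no strand and no multi-overlap option. The submitters' processing notes also name FastQC 0.11.5, Trimmomatic 0.36, HISAT2 2.1.0 and deepTools 2.0. Spike-in RNA was not analysed here. Groups came from the labels. The genes and lists were chosen with earlier results of these data known.

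Each comparison was fitted on all genes of 1 experiment (or of the 2 compared) with edgeR 4.0.16 (R 4.3.3, limma 3.58.1), using TMM scaling, filterByExpr with a minimum count of 10 and total of 15, the quasi-likelihood test and Benjamini-Hochberg adjusted p under 0.05. RIP comparisons used library by treatment terms. DESeq2 1.42.0, RLE size factors, no filter, a replicate block, a fit of all inputs, a scaling to mitochondrially encoded mRNAs and leaving out each replicate were alternatives. In RIP comparisons, leaving out a replicate removed its input and RIP library of the same number together. Fits were tested on simulated data. Floors for 0 counts cover counting error only, whereas SDs and SEs take in the spread between libraries. All 10 genes are named. From each other list the 2 called genes with the largest rise and the 2 with the largest fall per input comparison could be named, from the neighbours every gene at 1 CPM or more, and the 5 genes with the highest Pearson correlation with MYCN over the 8 input group means of log2 CPM. Same-numbered replicates did not consistently deviate together (correlations of -0.322 to 0.372, the highest for RIP replicate 2 in NGP cells). The numbers were therefore not used to pair them in the main fits. The replicate block called 870 genes against 520 for the input change in NGP cells, and 65 against 0 in xenografts. MYC sequence is not shown, and 1 gene of the other lists is not reported here.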

Additional observations from a re-analysis of the deposited data

Results flagged for a closer look

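In Kelly cells the input response to STM2457 differed between 6 days and 1 day for MYCN (log2 difference 0.28) and MGA (0.33) by a test of the difference itself. RIP over input in DMSO differed between NGP and Kelly cells at 6 days for MYCN (-1.46), DDX1 (2.57), NBAS (2.83), MXD3 (-2.56), MXD4 (-1.82) and MNT (-1.09), again by a test of the difference.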

How the results depend on the processing

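Under scaling to mitochondrially encoded mRNAs, RIP over input turned in sign for DDX1 at 1 day in Kelly cells (0.047) and for DDX1 (3.21), NBAS (0.70) and MXI1 (2.77) at 6 days. Its change turned for DDX1 (-0.16), MAX (-0.46) and MXI1 (-0.33) at 1 day and for DDX1 (-1.21) and MAX (-0.88) at 6 days, and the difference of NGP and Kelly cells turned for DDX1 (-1.46) and NBAS (-1.08). That scaling called 8 genes for RIP over input at 6 days in Kelly cells, 5 in NGP cells and 4 for the change at 6 days. The replicate block called 1 gene for the input change at 1 day and 0 for the difference of 6 days and 1 day, and left the other counts of the 10 genes within 1.5 times. The fit of all inputs called 0 genes in Kelly cells at 1 day, 0 at 6 days and 2 in NGP cells. Without a filter the counts were 1 for RIP over input in xenografts, 3 for its change at 1 day and 1 for the difference of Kelly and NGP responses. DESeq2 called 1, 2 and 1 for RIP over input in xenografts, its change at 6 days and that difference. With 1 library left out, the called genes numbered 1 to 2 (Kelly, 1 day), 0 to 5 (Kelly, 6 days) and 0 to 1 (NGP) for the input change, and 0 to 1 for RIP over input in xenografts. They numbered 2 to 4 and 0 to 1 for its change in Kelly cells at 1 and 6 days, 0 to 2 and 0 to 1 for the response differences, and 3 to 5 (NGP) and 3 to 7 (xenografts) for the level against Kelly cells. MYCN ran from -0.081 to 0.0087 for the input change at 1 day, -0.073 to 0.30 for RIP over input in NGP cells, -0.40 to 0.027 and -0.68 to 0.035 for its change in NGP cells and xenografts, and -0.052 to 0.091 for the level in NGP against Kelly cells. Pairing the xenograft replicates crosswise, chosen after seeing the data, called 623 genes against 474 for RIP over input and 0 against 0 for its change. The cause of these differences between settings, the shift of the median under the mitochondrial scaling among them, was not tested. The xenografts, with 2 shallow libraries a group, limit what could be called there.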
